A study of Mus musculus with 12 samples.

Results

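Casp2, Casp6, Casp8, Casp9, Casp12, Apaf1, Bcl2 and Bcl2l1 encode caspases, the scaffold protein that activates one of them, and the best known proteins that hold apoptosis back. The 8 genes were chosen by symbol from the 57490 genes of the deposited count table, and all 8 were found there on a single row each. Kidney RNA from 12 male mice was sequenced after selection of polyadenylated RNA, to ask which transcripts differ in diabetic nephropathy and after treatment with Yiqi Huoxue Yangyin Decoction (YHY), a herbal water extract. The labels name the tissue as kidney, whereas the description of the series names renal cortex.

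Each of the 3 groups held 4 mice. The Ctrl mice were BKS heterozygotes (db/+, written db/m), which the labels call wild-type although they carry a mutant Lepr allele, and they were given purified water. The Model mice were homozygous for the Leprdb mutation (db/db, strain BKS.Cg-Dock7m +/+ Leprdb/JNju). The study calls such mice leptin receptor-deficient. The Model mice were also given purified water. The YHY mice were db/db mice of the same strain that were given the extract at 6.24 g/mL. The dose in weight of herb per body weight that this concentration stands for is not named in the sources used here for the sequenced mice. All mice arrived at 8 weeks of age, rested for 1 week, were gavaged each day for 4 weeks with a volume of 50 µL for every 10 g they weighed, and were 13 weeks old at sampling. The db/db mice were entered at a random blood glucose of at least 16.7 mmol/L and the db/+ mice below 11.1 mmol/L, so the genotypes were also selected on glucose.

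Apoptosis is carried out by caspases, proteases that lie dormant in the cell until an initiator caspase is activated. Death receptors at the cell surface activate caspase-8, whereas mitochondria that have been opened by Bax and Bak release cytochrome c, which assembles Apaf1 and caspase-9 into the apoptosome. Bcl2 and the product of Bcl2l1 (Bcl-xL) keep mitochondria closed, and in the kidney this balance is best known from injury of the tubules and loss of podocytes.

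The gene counts of a mouse added up to 24415658 at the least (Model 4) and 33276634 at the most (Ctrl 1). Several libraries stood apart before any gene was compared. Transcripts of the mitochondrial genome took 18.6%, 22.7%, 18.4% and 18.5% of the counts in Ctrl 1 to 4. They took 41.2%, 58.9%, 55.3% and 53.4% in Model 1 to 4, and 53.8%, 64.6%, 54.6% and 54.2% in YHY 1 to 4. Ctrl 2 and YHY 2 were therefore high and Model 1 low within their groups, and all db/db mice lay above all Ctrl mice. The comparisons below use all 12 mice, and members whose call rests on Model 1 or YHY 2 are also given without both. Because these shares differed between the groups, libraries were scaled by the trimmed mean of M values (TMM), and levels are given as TMM-scaled CPM.

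Groups were compared with edgeR's quasi-likelihood test, with the Benjamini-Hochberg adjustment taken across the 17431 genes left by a filter on low counts. All 8 members passed it, with counts in single mice from 33 (Casp12) to 3592 (Bcl2l1). A gene was called when its adjusted P was under 0.05. Of the 8 members, Bcl2l1 was called higher and Casp6 and Bcl2 lower in Model than in Ctrl, 3 in all. Over all tested genes, 38% were called in this comparison, 19.6% higher and 18.5% lower. In YHY against Model 1 member, Bcl2l1, was called, and it was lower. The share over all tested genes was 13.3%, with 5.63% higher and 7.62% lower. This share depended on single mice, since 982 genes were called higher and 1329 lower, against 419 and 727 without Model 3. In YHY against Ctrl, Apaf1 was called higher and Casp6 and Bcl2 lower, again 3 of 8, beside 50.3% of all genes, with 26.1% higher and 24.2% lower. With 8 genes, a single call more or less moves these shares by more than 10 points, so the numbers of calls are not read as a result about these genes, and what follows describes them 1 by 1.

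The median log2 fold change of the 8 members was -0.03 in Model against Ctrl, 0.18 in YHY against Model and 0.03 in YHY against Ctrl. Over all tested genes the medians were 0.04, 0.02 and 0.10. Every pair of comparisons shares a group of mice, so agreement between them is not independent and was not measured. With libraries scaled by size alone, the median of all genes moved to -0.39 for Model against Ctrl and -0.33 for YHY against Ctrl, and the share of called genes that were higher moved from 51.5% to 21.4% and from 51.9% to 28.4%. Upper-quartile scaling moved the median of all genes up, to 0.14 and 0.22 in the same comparisons. The members called in YHY against Ctrl depended on the scaling. Library size alone called 0 higher and 4 lower (Casp6, Casp9, Bcl2 and Bcl2l1), and upper-quartile scaling called 3 higher (Casp2, Casp8 and Apaf1) and 0 lower. The calls given below are those with TMM scaling unless stated otherwise. A bulk measurement of tissue cannot tell apart fewer cells of a type and less RNA per cell.

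**Figure D1:**
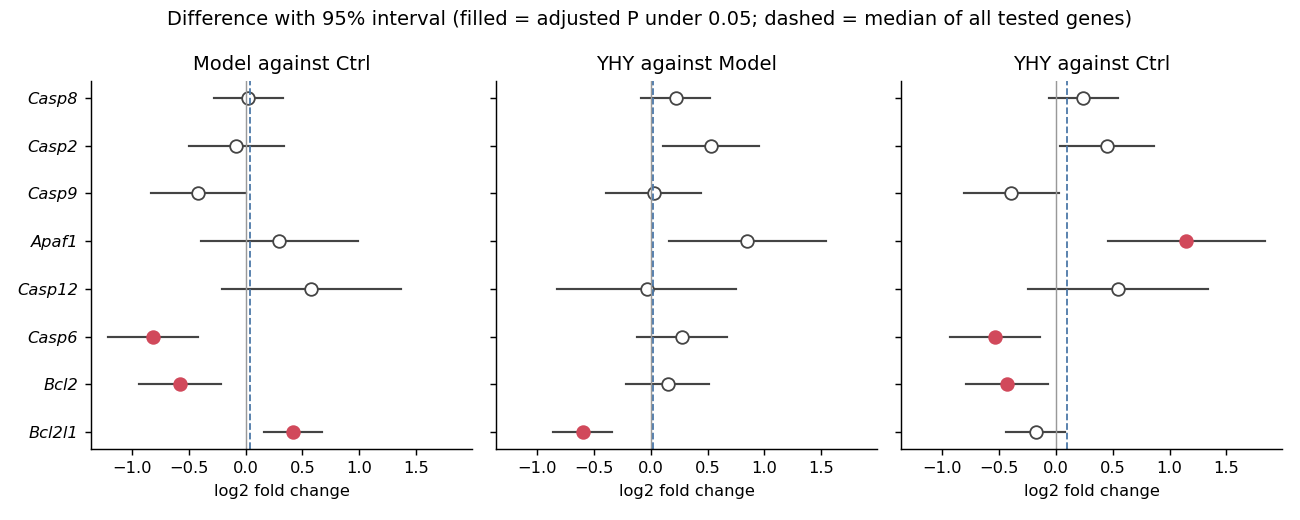
Log2 fold change of each of the 8 genes in the 3 comparisons, with 95% intervals from the edgeR fit of 12 mice, filled where the adjusted P was under 0.05 and with the median of all tested genes dashed. Bcl2l1 lay at 0.42 in Model against Ctrl and at -0.60 in YHY against Model.

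Casp8 encodes the initiator caspase of the death receptors and was the caspase with the highest level in all groups. Its level was 33.5, 36.5, 33.8 and 25.7 CPM in Ctrl 1 to 4, 35.4, 34.8, 33.8 and 27.7 CPM in Model 1 to 4, and 33.8, 43.0, 36.3 and 40.3 CPM in YHY 1 to 4. The Ctrl and Model mice covered nearly the same range, each with its lowest value in mouse 4, and the YHY mice overlapped with both. The log2 fold change was 0.02 in Model against Ctrl (standard error 0.14, 95% interval -0.28 to 0.33, edgeR adjusted P = 0.914) and 0.22 in YHY against Model (standard error 0.14, 95% interval -0.09 to 0.52, edgeR adjusted P = 0.338). Neither difference was called, and the first interval leaves room for a change of about 0.3 on the log2 scale in either direction. In YHY against Ctrl the log2 fold change of Casp8 was 0.24 (edgeR adjusted P = 0.171), which was not called. It was called with upper-quartile scaling (0.36, edgeR adjusted P = 0.0429), and with library size alone the value was -0.19.

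Casp2 encodes a caspase that is activated on the PIDDosome, a platform built by the products of Pidd1 and Cradd. Its level was 7.71, 5.80, 7.67 and 6.63 CPM in Ctrl 1 to 4 and 5.89, 6.00, 7.22 and 7.23 CPM in Model 1 to 4. It was 7.29, 9.90, 8.86 and 12.0 CPM in YHY 1 to 4. Every YHY mouse lay above every Model mouse, YHY 1 by a margin of less than 0.1 CPM, while Ctrl and Model overlapped. In YHY against Model the log2 fold change was 0.53 (standard error 0.20, 95% interval 0.11 to 0.95), with an edgeR adjusted P of 0.0872 and an exact permutation P of 0.0286, the smallest that 4 mice against 4 can give. The gene was thus not called, and with DESeq2 it was (adjusted P = 0.0484, in a range from 0.0484 to 0.279 over the alternatives). The study's limits also called it. Against Ctrl the log2 fold change of YHY was 0.45 (edgeR adjusted P = 0.0657), which was not called. It was called under 5 alternatives, namely DESeq2 (adjusted P = 0.0461), upper-quartile scaling (0.57, edgeR adjusted P = 0.021), a filter of 10 counts in each mouse (edgeR adjusted P = 0.0364), the study's limits and the fit without YHY 1 (0.56, edgeR adjusted P = 0.03). Over all alternatives the adjusted P lay between 0.021 and 0.995, the latter with library size alone.

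Casp9 encodes the initiator caspase of the mitochondrial route. Its level was 7.32, 8.71, 7.47 and 8.45 CPM in Ctrl 1 to 4, 5.31, 5.91, 6.99 and 5.77 CPM in Model 1 to 4, and 6.03, 6.19, 4.65 and 7.52 CPM in YHY 1 to 4. All Model mice lay below all Ctrl mice, and YHY 4 alone of the YHY mice reached into the Ctrl range. In Model against Ctrl the log2 fold change was -0.41 (standard error 0.20, 95% interval -0.83 to 0.00), with an edgeR adjusted P of 0.107 and an exact permutation P of 0.0286. The gene was not called in any comparison over all mice with TMM scaling. In Model against Ctrl it was called with library size alone (-0.85, edgeR adjusted P = 0.00507) and when only the 8 mice compared were fitted (-0.43, edgeR adjusted P = 0.0482), with adjusted P up to 0.212 under the alternatives. With library size alone it was also called in YHY against Ctrl (-0.83, edgeR adjusted P = 0.00468). With YHY 4 left out it was called in YHY against Ctrl (log2 fold change -0.51, edgeR adjusted P = 0.0466), where the value over all mice was -0.39 (edgeR adjusted P = 0.11, from 0.00468 to 0.263 over the alternatives).

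Apaf1 encodes the scaffold of the apoptosome. Its level was 3.10, 2.81, 3.16 and 2.89 CPM in Ctrl 1 to 4 and 3.19, 4.95, 3.52 and 3.08 CPM in Model 1 to 4. It was 6.75, 11.9, 4.06 and 3.91 CPM in YHY 1 to 4. The Ctrl mice were close together, all YHY mice lay above them, and the YHY mice split into YHY 2, YHY 1 and a lower pair that fell within the Model range. In YHY against Ctrl the level was 2.22-fold higher, a log2 fold change of 1.15 (standard error 0.33, edgeR adjusted P = 0.00793, exact permutation P = 0.0286). YHY 2, with 64.6% mitochondrial counts, gave the highest value. Without YHY 2 alone the call was kept (0.71, edgeR adjusted P = 0.0427), and without it and Model 1 the log2 fold change was 0.68 and no longer called (edgeR adjusted P = 0.0547, in a range from 0.0017 to 0.0812 over the alternatives). In YHY against Model the log2 fold change was 0.85 (standard error 0.33, edgeR adjusted P = 0.0972, exact permutation P = 0.171). It was 0.41 without YHY 2, 0.37 without YHY 2 and Model 1, and 1.03 and called without YHY 4 (edgeR adjusted P = 0.0385, in a range from 0.0385 to 0.475). Over all mice the study's limits also called Apaf1 in this comparison. The difference from Model was thus carried mostly by YHY 2.

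Casp12 encodes a mouse caspase of the endoplasmic reticulum, known from stress of that compartment. It had the fewest counts of the 8 genes, from 33 to 114 per mouse. Its level was 2.09, 1.84, 2.01 and 1.43 CPM in Ctrl 1 to 4, 3.67, 2.86, 2.42 and 2.05 CPM in Model 1 to 4, and 1.72, 3.87, 3.95 and 1.28 CPM in YHY 1 to 4. The YHY mice formed a high pair and a low pair on either side of the Model mean, and all groups overlapped. The log2 fold change in Model against Ctrl was 0.58 (standard error 0.37, 95% interval -0.21 to 1.37, edgeR adjusted P = 0.233). It was not called under any alternative, and it was 0.35 without Model 1, the highest Model mouse (edgeR adjusted P = 0.527), and 0.17 with library size alone (edgeR adjusted P = 0.755), in a range of adjusted P from 0.123 to 0.755.

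**Figure D2:**
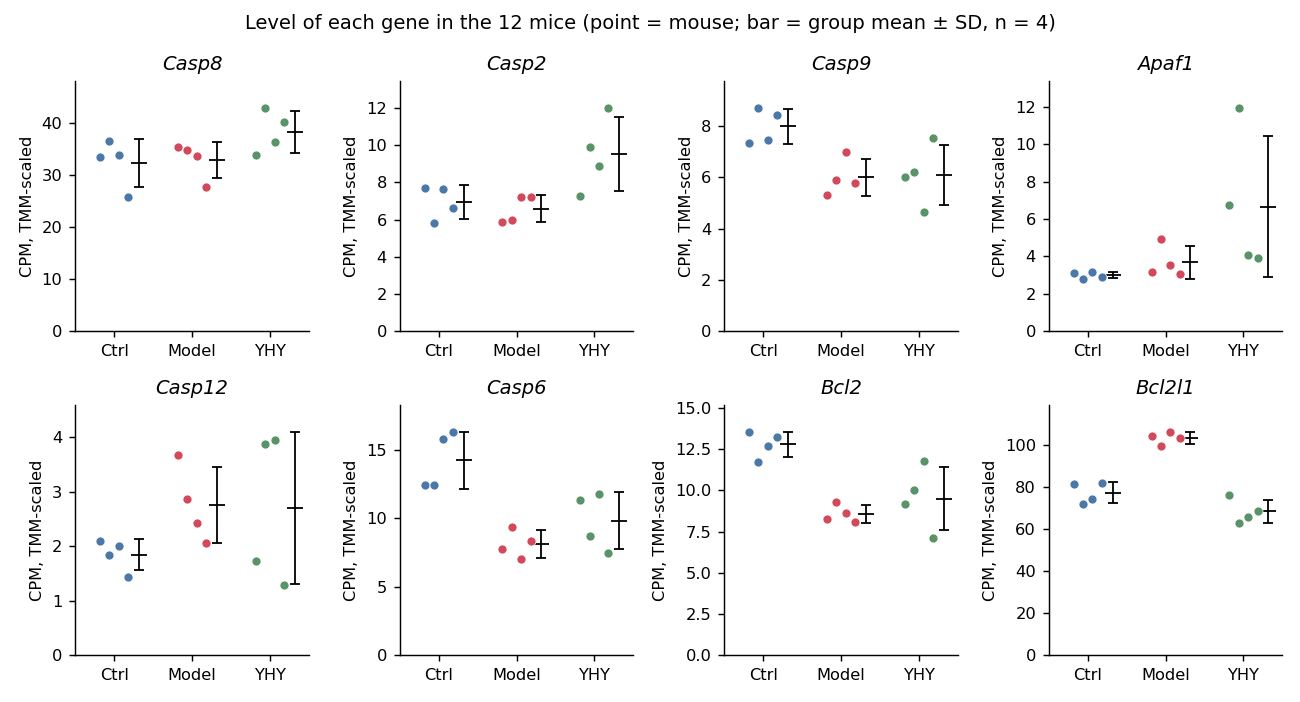
TMM-scaled CPM of each of the 8 genes in every mouse of the Ctrl, Model and YHY groups, 1 point per mouse, with the group mean and SD (n = 4) as a black bar and each axis starting at 0. The Model mice of Bcl2l1 lie at 99.4 to 106 CPM, above all other mice.

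Casp6, Bcl2 and Bcl2l1 were the members called in Model against Ctrl, and the stretch just before a listed start site of each is shown. Which start sites were used in these kidneys was not measured. Of the 8 members, 8 had an entry in the RefSeq promoter table (build GRCm38.p6), which holds 250 bases before to 50 bases after each start, and Bcl2l1 had 3 entries. The 100 bases before the start were taken for Casp6 (chr3:129901315-129901414, plus strand), Bcl2 (chr1:106714291-106714390, minus strand) and the outermost start of Bcl2l1 (chr2:152831729-152831828, minus strand), none of which overlaps an exon of the GENCODE annotation of that build. Capitals mark the GC box GGGCGG on either strand. The CCAAT box (CCAAT) and the TATA box (TATAAA) were also searched on both strands and were not found in these stretches, and no 2 of the 3 motifs overlapped there.
Casp6: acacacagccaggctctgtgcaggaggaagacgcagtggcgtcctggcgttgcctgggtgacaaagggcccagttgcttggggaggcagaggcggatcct
Bcl2: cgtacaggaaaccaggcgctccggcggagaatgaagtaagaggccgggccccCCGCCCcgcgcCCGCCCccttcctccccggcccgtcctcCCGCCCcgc
Bcl2l1: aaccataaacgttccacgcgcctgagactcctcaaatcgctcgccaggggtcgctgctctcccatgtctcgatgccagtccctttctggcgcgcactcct
The stretch of Bcl2 held 3 GC boxes, and 77% of its bases were G or C. The Casp6 and Bcl2l1 stretches held 0 GC boxes, at 64% and 60% G or C. In the whole 300 bases of the table entry there were 7 GC boxes for Bcl2, 3 for Casp6 and 0 for this start of Bcl2l1, and 35.7% of all such windows held at least 1. Of the 32851 promoter stretches of the same length in the table, 24.7% held a GC box, 18.9% a CCAAT box and 5.56% a TATA box. The letters describe these windows only, and binding was not measured.

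Casp6 encodes a caspase that cleaves lamins. The gene (ENSMUSG00000027997) is listed on chromosome 3 from 129695074 to 129707752 on the plus strand, in the coordinates of the deposited table, whose build the submitters' processing notes give as GRCm39. These coordinates are not those of the promoter table. Its level was 12.4, 12.4, 15.8 and 16.3 CPM in Ctrl 1 to 4, 7.76, 9.38, 6.99 and 8.34 CPM in Model 1 to 4, and 11.3, 8.73, 11.8 and 7.48 CPM in YHY 1 to 4. All db/db mice, treated or not, lay below all Ctrl mice, and YHY 1 and YHY 3 lay above every Model mouse. Casp6 was 1.75-fold lower in Model than in Ctrl (log2 fold change -0.81, standard error 0.19, edgeR adjusted P = 0.00297, exact permutation P = 0.0286). This call held under every alternative tried, with adjusted P from 3e-04 to 0.0131. In YHY against Ctrl it was 1.45-fold lower (log2 fold change -0.53, standard error 0.19, edgeR adjusted P = 0.0246). That call was lost without Ctrl 3, Ctrl 4, YHY 2 or YHY 4 (log2 fold changes -0.53, -0.52, -0.49 and -0.43) and without Model 1 and YHY 2 together (-0.52), and also with upper-quartile scaling (-0.40, edgeR adjusted P = 0.091), with adjusted P from 0.00474 to 0.091 over the alternatives. Between YHY and Model the log2 fold change was 0.28 (95% interval -0.12 to 0.67, edgeR adjusted P = 0.354), which was not called.

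Bcl2 encodes the founding anti-apoptotic protein of its family. It is listed as ENSMUSG00000057329 on chromosome 1 from 106465908 to 106642004 on the minus strand. Its level was 13.5, 11.7, 12.7 and 13.2 CPM in Ctrl 1 to 4, 8.27, 9.29, 8.63 and 8.08 CPM in Model 1 to 4, and 9.16, 10.0, 11.8 and 7.09 CPM in YHY 1 to 4. The Model mice were tightly grouped below all Ctrl mice, whereas YHY 3 lay just above the lowest Ctrl mouse and YHY 4 was the lowest of all 12 mice. Bcl2 was 1.49-fold lower in Model than in Ctrl (log2 fold change -0.58, standard error 0.17, edgeR adjusted P = 0.0137, exact permutation P = 0.0286), and the call held under every alternative tried, with adjusted P from 0.00163 to 0.0427. Against Model the YHY mice had a log2 fold change of 0.15 (standard error 0.17, 95% interval -0.21 to 0.51, edgeR adjusted P = 0.612). Against Ctrl the YHY mice were 1.35-fold lower (log2 fold change -0.43, edgeR adjusted P = 0.0446, exact permutation P = 0.0571). This value sat at the threshold, and the call was lost under 16 of the 23 alternatives. It was lost when any of Ctrl 1, Ctrl 3, Ctrl 4, Model 2, Model 3, Model 4, YHY 1, YHY 2 or YHY 4 was left out, with log2 fold changes of -0.46, -0.49, -0.47, -0.43, -0.43, -0.43, -0.42, -0.46 and -0.31 in that order. It was also lost with upper-quartile scaling (-0.30), without mitochondrial genes (-0.41), with no filter (-0.47), with a filter of 10 counts in each mouse (-0.37), over the 8 mice compared alone (-0.46), with the replicate block (-0.45) and over 9 mice, without Ctrl 2, Model 1 and YHY 4 (-0.39). Without Model 1 and YHY 2 together the call was kept (-0.49, edgeR adjusted P = 0.044). The edgeR adjusted P lay between 0.00426 (library size alone) and 0.164 (upper-quartile scaling).

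Bcl2l1 encodes Bcl-xL, with a shorter pro-apoptotic splice form that counts per gene do not separate. It is listed as ENSMUSG00000007659 on chromosome 2 from 152622588 to 152673648 on the minus strand. Its level was 81.5, 71.9, 74.3 and 81.8 CPM in Ctrl 1 to 4, 104, 99.4, 106 and 103 CPM in Model 1 to 4, and 76.1, 62.9, 65.9 and 68.7 CPM in YHY 1 to 4. The Model mice lay close together above all others, while YHY 1 lay inside the Ctrl range and the other 3 YHY mice below it. Bcl2l1 was higher in Model than in Ctrl (log2 fold change 0.42, standard error 0.12, 95% interval 0.16 to 0.68, edgeR adjusted P = 0.0134, exact permutation P = 0.0286). It was 1.51-fold lower in YHY than in Model (log2 fold change -0.60, standard error 0.12, 95% interval -0.86 to -0.34, edgeR adjusted P = 0.00616, exact permutation P = 0.0286). YHY against Ctrl was not called (log2 fold change -0.18, 95% interval -0.44 to 0.08, edgeR adjusted P = 0.239), but it was with library size alone (-0.60, edgeR adjusted P = 0.0184, in a range from 0.0184 to 0.736).

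The rise of Bcl2l1 in Model depended on the scaling and on Ctrl mice. With library size alone its log2 fold change was -0.02 (edgeR adjusted P = 0.95), in a fit where the median of all genes was -0.39, so that it still lay above that median. The call was lost without Ctrl 1 (0.39, edgeR adjusted P = 0.0534), without Ctrl 3 (0.35, edgeR adjusted P = 0.0842), with no filter on low counts (0.39, edgeR adjusted P = 0.0947) and over 9 mice, without Ctrl 2, Model 1 and YHY 4 (0.33, edgeR adjusted P = 0.0759), with adjusted P from 0.000757 to 0.95 over the alternatives. The fall under YHY kept its call without each mouse in turn (log2 fold changes from -0.65 to -0.56) and without Model 1 and YHY 2 (-0.54). With library size alone it was -0.58 and not called (edgeR adjusted P = 0.0829, in a range from 6.13e-06 to 0.0829).

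A ratio of genes within a mouse does not depend on how libraries are scaled, so it was taken per kilobase of gene length for Bcl2l1 and Bcl2. It was 12.0, 12.2, 11.7 and 12.3 in Ctrl 1 to 4, 25.1, 21.4, 24.6 and 25.5 in Model 1 to 4, and 16.6, 12.5, 11.2 and 19.3 in YHY 1 to 4. Every Model mouse lay above every other mouse, and YHY 3 lay below the Ctrl mice. The mean was 12.1 ± 0.283 for Ctrl, 24.2 ± 1.90 for Model and 14.9 ± 3.74 for YHY (SD, n = 4). The ratio was examined because both genes had been called, so it is given as a description without a test.

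**Figure D3:**
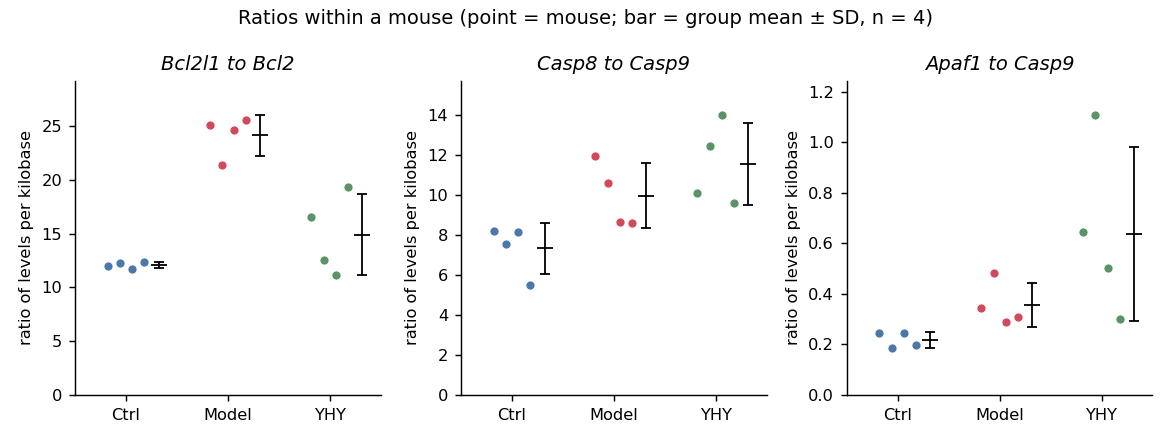
Ratio of levels per kilobase within each mouse for Bcl2l1 to Bcl2, Casp8 to Casp9 and Apaf1 to Casp9, 1 point per mouse, with the group mean and SD (n = 4) as a black bar. For Bcl2l1 to Bcl2 the Model mice lie between 21.4 and 25.5 and the other mice between 11.2 and 19.3.

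Ratios between the initiator genes are described in the same way. The ratio of Casp8 to Casp9 per kilobase was 7.34 ± 1.28 for Ctrl, 9.97 ± 1.62 for Model and 11.5 ± 2.07 for YHY (SD, n = 4). That of Apaf1 to Casp9 was 0.217 ± 0.0304 for Ctrl, 0.356 ± 0.0875 for Model and 0.639 ± 0.344 for YHY (SD, n = 4), highest in YHY 2 at 1.11. Both ratios were higher in each Model mouse than in any Ctrl mouse, and Model and YHY overlapped.

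Levels were compared between genes as CPM per kilobase of the listed gene length. In Ctrl the order of the levels was Bcl2l1 (16.9 ± 1.10), Casp8 (11.2 ± 1.60), Casp6 (2.55 ± 0.377), Casp9 (1.54 ± 0.133), Bcl2 (1.40 ± 0.0858), Casp2 (0.985 ± 0.130), Casp12 (0.480 ± 0.0759) and Apaf1 (0.331 ± 0.0184; SD, n = 4 for each). Of the neighbours in this order only Casp9 and Bcl2 overlapped between mice. In Model the levels of Bcl2l1 (22.5 ± 0.639) and Casp8 (11.4 ± 1.23) stood further apart. Among the genes below Casp8, Model mice overlapped between all neighbours except Casp9 and Bcl2. In YHY the levels of Bcl2l1 (14.9 ± 1.24) and Casp8 (13.3 ± 1.40) overlapped, and so did every lower pair of neighbours after the step from Casp8 to Casp6. The step below Casp8 was present in every group. Ordered by CPM without length, Bcl2 moved above Casp9 and Apaf1 above Casp12 in Ctrl, Bcl2 moved above Casp6 in Model, and 4, 2 and 5 of the 8 genes kept their places in Ctrl, Model and YHY. Bcl2l1 and Casp8 came first either way.

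**Figure D4:**
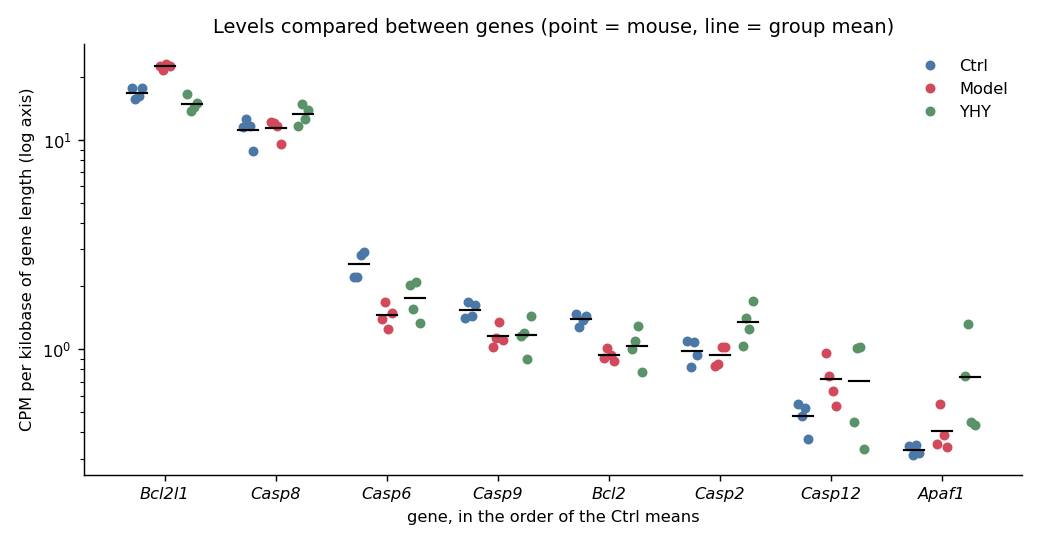
CPM per kilobase of gene length on a log axis for the 8 genes in every mouse, in the order of the Ctrl means, with each group mean as a line. Bcl2l1 and Casp8 lie above 8 CPM per kilobase in every mouse and the other 6 genes below 3.

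For each member the gene with the most alike pattern over the 12 mice was found as the smallest root mean square difference of centred log2 CPM among 12072 candidate genes. The nearest were Ergic2 to Casp2 (difference 0.12), Usf3 to Casp6 (0.15), Ipo4 to Casp8 (0.14), Psmd4 to Casp9 (0.12), Zkscan6 to Casp12 (0.24), Uri1 to Apaf1 (0.16), Uvrag to Bcl2 (0.13) and Tmem222 to Bcl2l1 (0.12). The SD of the members themselves over the mice ran from 0.20 (Casp8) to 0.61 (Apaf1) on the same log2 scale. For Casp8 the difference from its nearest gene was not far below Casp8's own SD.

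The rest of the pathway was read from 10 lists with 59 genes, of which 54 were tested. In Model against Ctrl 11 were called higher and 14 lower (median log2 fold change -0.03), in YHY against Model 3 higher and 3 lower (median -0.08), and in YHY against Ctrl 14 higher and 16 lower (median -0.04). Over all tested genes 19.6% were called higher and 18.5% lower in the first of these comparisons, 5.63% and 7.62% in the next, and 26.1% and 24.2% in the last, and the counts of each list below stand against these shares. Calls in both directions were held by 5 of the 10 lists in Model against Ctrl. The paragraphs below give edgeR log2 fold changes with adjusted P.

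Of 2 tested genes on the list of other caspases, 1 was called higher in Model, the inflammatory caspase Casp4 (log2 fold change 1.18, edgeR adjusted P = 0.0172). Casp1 was called with it in YHY against Ctrl (1.53, edgeR adjusted P = 0.0067). Among the YHY mice Casp1 and Casp4 were highest in YHY 2 and YHY 1, where macrophage genes also summed highest (450 and 307 CPM). Of the 5 genes in that sum, Lyz2 (362 CPM in YHY 2), Cd68 and Adgre1 were highest in these mice. C1qa, by contrast, was lowest of the YHY mice in YHY 2 (7.13 CPM), and Csf1r was highest in YHY 3 (62.8 CPM). The part of macrophage content was not tested. Casp1 was 4.15 and 3.17 CPM in YHY 2 and YHY 1, and in YHY 4 (1.24 CPM) it lay below Ctrl 1 (1.49 CPM). Casp4 in YHY 4 (2.60 CPM) lay inside the Ctrl range. Of the other anti-apoptotic members of the Bcl2 family, 3 of 6 were tested. Bcl2l2, which encodes Bcl-w, fell in Model (log2 fold change -0.92, edgeR adjusted P = 0.000659), and the log2 fold change of Mcl1 was near 0 (0.04, edgeR adjusted P = 0.832). Bcl2 and Bcl2l2 were thus lower, Bcl2l1 higher, and Mcl1 not called.

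Bax and Bak1 encode the proteins that open the mitochondrial outer membrane. Bax was 30.4, 40.3, 28.2 and 32.6 CPM in Ctrl 1 to 4, 55.5, 49.2, 52.1 and 48.5 CPM in Model 1 to 4, and 43.3, 35.5, 41.4 and 46.7 CPM in YHY 1 to 4. The Model mice lay above all others, as for Bcl2l1, but the YHY mean of Bax was above the Ctrl mean and that of Bcl2l1 below it. Bax rose in Model against Ctrl (log2 fold change 0.64, edgeR adjusted P = 0.00207) and was not called in YHY against Model (-0.30, edgeR adjusted P = 0.174). Bak1 was not called in Model against Ctrl (-0.17, edgeR adjusted P = 0.526). That value depended on Model 1, where Bak1 was 10.8 CPM, above every Ctrl mouse (8.38 to 10.3 CPM), whereas Model 2 to 4 (7.29, 7.49 and 7.05 CPM) lay below every Ctrl mouse.

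The BH3-only proteins sense stress and trigger Bax and Bak or block their inhibitors. In Model against Ctrl 3 of 8 were called higher and 1 lower, with a median log2 fold change of 0.52. Hrk (3.89, edgeR adjusted P = 0.0129), Bik (1.02, edgeR adjusted P = 0.0255) and Bmf (0.93, edgeR adjusted P = 0.01) were higher. Hrk was close to the limit of detection, with a mean of 0.0342 CPM in Ctrl and 0.602 CPM in Model, so the size of its fold change is uncertain. Bid, which links caspase-8 to mitochondria, was lower (-0.83, edgeR adjusted P = 0.0248), and Bcl2l11, which encodes Bim, was not called (0.46, edgeR adjusted P = 0.137). Only Bad was called in YHY against Model (-0.83, edgeR adjusted P = 0.0317), and 7 of the 8 values were negative. YHY mice compared with Ctrl had 2 of the 8 called higher and 3 lower, among them Hrk (3.50, edgeR adjusted P = 0.0166) and Bmf (edgeR adjusted P = 0.002), which were higher, and Bid (-1.23, edgeR adjusted P = 0.00146) and Bad (-0.99, edgeR adjusted P = 0.00262), which were lower.

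Of 5 genes for proteins released from mitochondria, 3 were called lower in Model against Ctrl and 0 higher (18.5% and 19.6% over all tested genes), with a median log2 fold change of -0.85. They were Endog (-1.36, edgeR adjusted P = 0.000443), Aifm1 (-1.08, edgeR adjusted P = 5.55e-05) and Cycs (-0.85, edgeR adjusted P = 0.00164). Cycs, which encodes cytochrome c, was 389.9, 388, 346 and 280.0 CPM in Ctrl 1 to 4, 238, 167, 211 and 161 CPM in Model 1 to 4, and 95.7, 101, 133 and 130 CPM in YHY 1 to 4. The groups did not overlap, with Ctrl highest and YHY lowest. Cycs fell again in YHY against Model (-0.76, edgeR adjusted P = 0.0134), where it was the only called gene of this list. The share of mitochondrial genome transcripts was higher in all db/db mice than in Ctrl, and its part in these differences was not tested.

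Of the 5 inhibitors of apoptosis, Birc5 (log2 fold change 1.97, edgeR adjusted P = 0.00845) and Birc3 (1.16, edgeR adjusted P = 0.00379) were higher and Birc6 lower (-0.44, edgeR adjusted P = 0.021) in Model against Ctrl. After YHY, against Model, Birc2 (0.73, edgeR adjusted P = 0.0214) and Birc6 (0.45, edgeR adjusted P = 0.0442) were higher. In YHY against Ctrl, Birc3 (1.81, edgeR adjusted P = 7.03e-05), Birc5 (1.37, edgeR adjusted P = 0.0422) and Birc2 (1.03, edgeR adjusted P = 0.000404) were higher. Xiap, whose product binds caspases directly, was not called in Model against Ctrl (0.02, edgeR adjusted P = 0.941).

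Among 10 tested genes of the death receptor route, 2 were called higher and 1 lower in Model against Ctrl. The receptor gene Fas was 7.61, 7.49, 5.41 and 5.56 CPM in Ctrl 1 to 4, 11.3, 15.1, 12.6 and 13.7 CPM in Model 1 to 4, and 16.9, 26.5, 12.6 and 17.1 CPM in YHY 1 to 4. All db/db mice lay above all Ctrl mice, and YHY 2 was the highest. Fas rose in Model (log2 fold change 1.01, edgeR adjusted P = 0.00164), as did Tnf (2.22, edgeR adjusted P = 0.00103), and the ligand gene Tnfsf10 fell (-1.35, edgeR adjusted P = 0.00048). None of the 10 was called in YHY against Model, where the log2 fold change of Fas was 0.47 (edgeR adjusted P = 0.154). Fadd, the adaptor that brings caspase-8 to Fas, was lower in YHY against Ctrl (-0.97, edgeR adjusted P = 0.00173) and not called in Model against Ctrl (-0.52, edgeR adjusted P = 0.0709). Cflar, whose product competes with caspase-8 for Fadd, was not called in Model against Ctrl (-0.17, edgeR adjusted P = 0.319). Compared with Ctrl, YHY mice had 3 of the 10 called higher and 2 lower. Tnf (2.88, edgeR adjusted P = 7.23e-05) and Fas (1.48, edgeR adjusted P = 4.03e-05) were higher, and Tnfsf10 was lower (-1.42, edgeR adjusted P = 0.000166).

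The partners of Casp2 moved apart. Pidd1 was 3.46, 3.34, 2.60 and 2.82 CPM in Ctrl 1 to 4, 4.41, 9.43, 8.81 and 8.55 CPM in Model 1 to 4, and 6.79, 14.8, 7.15 and 9.07 CPM in YHY 1 to 4. All db/db mice lay above all Ctrl mice, Model 1 being the lowest of them. Pidd1 rose in Model against Ctrl (log2 fold change 1.35, edgeR adjusted P = 0.00169), while Cradd fell in Model against Ctrl (-0.53, edgeR adjusted P = 0.0274) and again in YHY against Model (-0.69, edgeR adjusted P = 0.0209).

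Of 6 genes for caspase substrates and DNA fragmentation, Dffb, which encodes the nuclease that cuts DNA in apoptosis, was higher in Model against Ctrl (log2 fold change 1.70, edgeR adjusted P = 0.00112). Gsdme (-0.77, edgeR adjusted P = 0.00464) and Parp1 (-0.49, edgeR adjusted P = 0.0439) were lower. Of 10 genes of endoplasmic reticulum stress and calpains, 4 were lower and 0 higher in Model against Ctrl (18.5% and 19.6% over all tested genes), the chaperone genes Hspa5 (-1.80, edgeR adjusted P = 1.05e-05) and Hsp90b1 (-1.11, edgeR adjusted P = 0.000116) and the regulators Xbp1 (-1.59, edgeR adjusted P = 3.56e-05) and Atf6 (-0.89, edgeR adjusted P = 0.000696). The 1 gene called in YHY against Model was Xbp1, which was higher (0.74, edgeR adjusted P = 0.0246). In YHY against Ctrl 2 of the 10 genes were called higher and 4 lower, beside 26.1% and 24.2% over all tested genes. The values of Casp12 given above stood beside these changes without a call of its own.

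**Figure D5:**
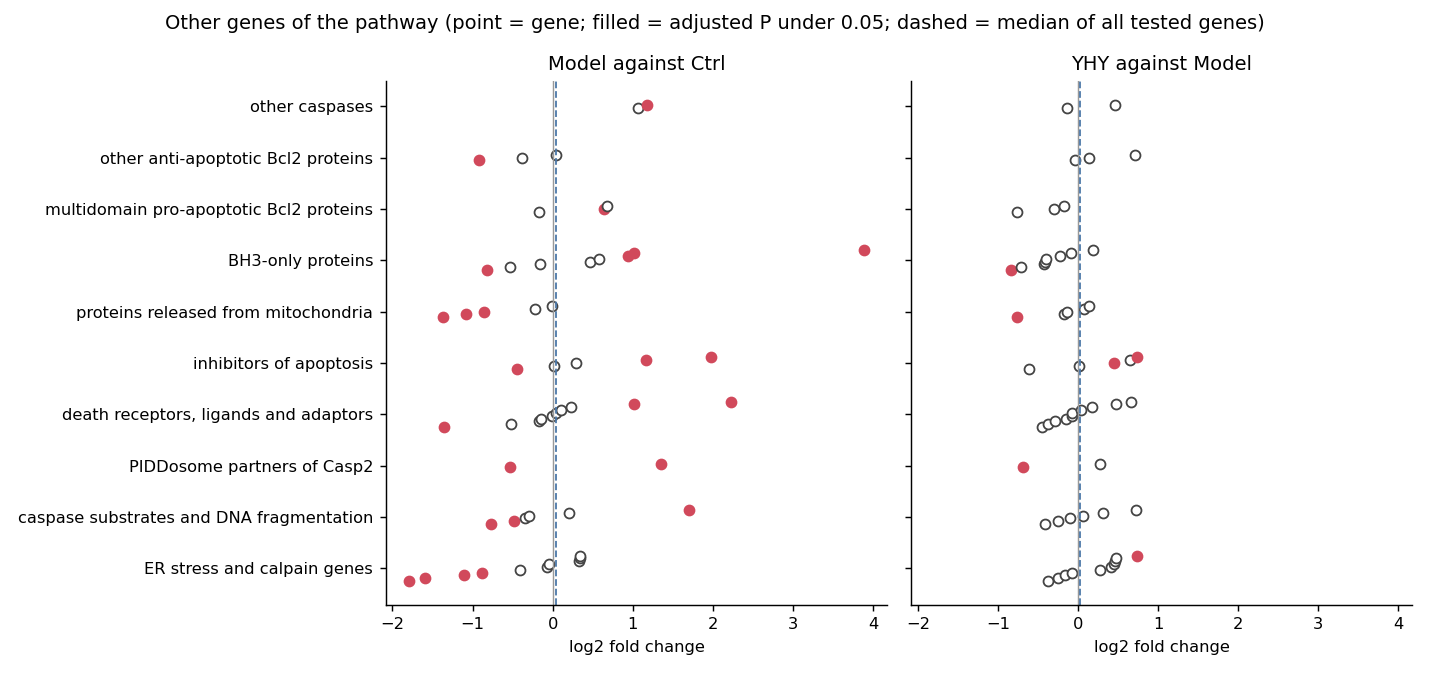
Log2 fold change of the 54 tested genes of 10 apoptosis lists for the Model with Ctrl and the YHY with Model comparisons, 1 point per gene, filled where the edgeR adjusted P was under 0.05 and with the median of all tested genes dashed. In Model against Ctrl 25 points are filled, and in YHY against Model 6.

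No marker of a kidney cell type was at 0 in every mouse. Summed over 5 proximal tubule genes, of which Slc34a1 was the most abundant, the mean was 3129 ± 648 CPM in Ctrl. It was lower, at 2580.5 ± 317 CPM, in Model and at 2224 ± 1027 CPM in YHY (SD, n = 4 each). In single mice it was lowest in YHY 1 (1099.6 CPM) and highest in Ctrl 2 (3999 CPM). The lower sum in Model came from Lrp2 (837 ± 60.5 CPM in Ctrl and 261 ± 39.9 CPM in Model) and Cubn (184 ± 25.8 and 98.0 ± 10.6 CPM), both called lower, whereas Slc34a1 did not fall (2041 ± 570 and 2126 ± 259.8 CPM) and 3 of the 5 log2 fold changes were above 0. Collecting duct genes, led by Aqp2, summed to 799.8 ± 387 CPM in Ctrl, with Model at 364 ± 76.3 CPM and YHY at 327 ± 170.2 CPM, with 2 of 4 called lower in Model against Ctrl. Genes of the loop of Henle and distal tubule summed to 1922 ± 452, 1327 ± 159.6 and 1642 ± 414 CPM in Ctrl, Model and YHY. Among them Umod was lower in Model (921 ± 276 CPM in Ctrl and 126 ± 54.1 CPM in Model), Slc12a3 higher (139 ± 36.7 and 349 ± 62.6 CPM) and Slc12a1 not called. Podocyte genes, led by Podxl, summed to 129 ± 18.3, 154 ± 65.7 and 107 ± 36.2 CPM in the same groups, and Model 1 (249.6 CPM) lay far above the other Model mice (100.2 to 142 CPM). Of the 5, Nphs1 and Synpo were called higher in Model against Ctrl, and against Ctrl the YHY mice had 3 called higher and Podxl lower. Macrophage genes, led by Lyz2, summed to 191, 132, 199 and 158 CPM in Ctrl 1 to 4, 174, 191, 228 and 287 CPM in Model 1 to 4, and 307, 450, 207 and 168 CPM in YHY 1 to 4. The sum was highest in YHY 2 and YHY 1, and Lyz2 made up most of it in YHY 2 (362 CPM). Cd68 (24.8 CPM in YHY 2 and 15.6 CPM in YHY 1) and Adgre1 (5.69 and 5.27 CPM) were also highest in these mice, as was Apaf1. The other genes of the list were not, C1qa being 7.13 CPM in YHY 2, below every Ctrl mouse, and Csf1r 50.2 CPM there against 77.4 CPM in Model 4. Cd68 was called higher and C1qa lower in Model against Ctrl. Of 3 red blood cell genes, Hbb-bs and Alas2 were called lower in Model against Ctrl (log2 fold changes -1.46 and -1.87) and higher in YHY against Model (1.29 and 1.71). Hba-a1, the most abundant of them, was called in neither (0.24 and 0.76). Of 4 genes of mesangium and smooth muscle, Des and Pdgfrb were called higher in Model against Ctrl, and Myh11 in YHY against Model. The part of cell composition in the differences above was not tested.

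Each group held 4 mice of a single sex, strain background and age, and a value that missed the threshold does not show that a gene was unchanged. Treatment was not given to db/+ mice, so its action without diabetes was not measured. Transcripts were counted per gene, and neither splice forms, cleaved caspases nor dying cells were measured. Genotype, blood glucose and the share of mitochondrial transcripts differed together, and their parts cannot be told apart. The order in which libraries were prepared is not known.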

How the data were processed

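Kidney mRNA of 12 mice was measured, with groups and numbers taken from the sample labels. The authors deposited raw counts of reads for 57490 genes without normalization. The submitters' processing notes name FastQC 0.11.9, Trimmomatic 0.39, HISAT2 2.2.1, SAMtools 1.12, featureCounts 2.0.1, DESeq2 1.34.0 and R 4.1.2, with the build GRCm39 (mm39). The use of strand in counting is not given in the sources used here. The 8 other genes that overlap 5 of the members had at most 9 counts in a mouse. Deposited comparison tables hold fold changes, P values, group means and pathway tests, which were not used. Their 12 columns of values per mouse were not used either, and those under the Model mean of YHY against Model are headed Model 1, YHY 3 and YHY 4. An earlier description of these files leaves Ctrl 2, Model 1 and YHY 4 out of the authors' means, which the heading Model 1 does not bear out. The 9 other mice were an alternative.

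Counts were analysed with edgeR 4.0.16 in R 4.3.3 (filterByExpr, TMM, glmQLFit and glmQLFTest) in a single fit of 3 groups without covariates. Standard errors and 95% intervals were derived from the F statistic. CPM are counts over the TMM-scaled library size. An exact permutation test of the difference in mean CPM (4 mice against 4, two-sided) stands beside edgeR for members. The same fit was tested on simulated data, and no result given here rests on that test. Figures were drawn with matplotlib 3.10.9 in Python 3.11.15.

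Members and lists were chosen with earlier results of these data known. Genes named are the 8 members, 11 fixed genes (Bax, Bak1, Bid, Bcl2l11, Mcl1, Xiap, Cycs, Fas, Fadd, Cflar, Pidd1), up to 4 called genes per list and comparison with the largest absolute log2 fold change, and for each member the gene of nearest pattern with a mean count of at least 50. Alternatives were DESeq2 1.42.0, library size alone, upper-quartile scaling, removal of mitochondrial genes, no filter, a filter of 10 counts in each of the mice, the 8 mice compared alone, a replicate block, each mouse left out, the 9 mice, the study's limits (fold change over 1.2 and unadjusted P under 0.05) and CPM without length. Leaving out Model 1 and YHY 2 together was chosen after seeing the data. The 18 pairs of mice within groups differed by 17.3 to 139 in chi-square per degree of freedom, so none of these pairs held copies of a library. Mice of different groups with the same number had correlations from -0.173 to 0.125. Mice with different numbers were not compared in this way, so these values cannot show whether mice were paired. The labels name no pairing beyond the number, and pairing stands in the alternatives only.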

Additional observations from a re-analysis of the deposited data

Results flagged for a closer look

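In 6 of 108 groups of 4 mice, 1 mouse lay far from the other 3 by the gap to its nearest neighbour, and chance gives about 1 in 20 such groups. None of the 24 groups of the members was among them. Ctrl 2 had 22.7% mitochondrial counts against 18.4% to 18.6% in the other Ctrl mice, and a library total of 29632718 against 32677732 to 33276634. Ctrl 2 also had a summed endothelial marker level of 102 CPM against 151 to 160 CPM. YHY 2 had 64.6% mitochondrial counts against 53.8% to 54.6% in the other YHY mice, and a level of Xiap of 28.4 CPM against 44.7 to 45.2 CPM. Model 1 had a level of Bak1 of 10.8 CPM, where the remaining Model mice had 7.05 to 7.49 CPM.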

How the results depend on the processing

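The 24 member differences and the numbers of calls were repeated under 23 alternatives, and the cause of any shift was not tested. In YHY against Model 1 of the members was called over all mice. DESeq2 called 2, library size alone 0 and the study's limits 3, and leaving out a mouse gave 1 to 2. Of all genes 2311 were called there, against 1177 with library size alone, 1385 with the 8 mice alone, 1436 without Model 1 and YHY 2, 4988 by the study's limits, and 1146 (without Model 3) to 2723 (without YHY 4) with a mouse left out. In YHY against Ctrl, members called fell from 3 to 1 without Model 1 and YHY 2, and leaving out a mouse gave 1 to 3.

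Signs turned for some members, including Bcl2l1 in Model against Ctrl (0.42 with TMM), Casp2 in YHY against Ctrl (0.45) and Apaf1 in Model against Ctrl (0.30). With library size alone, the log2 fold changes in Model against Ctrl were -0.40 (Casp8), -0.16 (Apaf1) and -0.018 (Bcl2l1), and in YHY against Ctrl -0.0019 (Casp2) and -0.19 (Casp8). Casp2 in Model against Ctrl was 0.023 with upper-quartile scaling. Casp8 in Model against Ctrl was -0.0028 without a filter, -0.0074 over the 9 mice, -0.071 without Model 1 and YHY 2, and -0.12 to 0.10 with a mouse left out. Casp9 in YHY against Model was -0.13 over the 9 mice, -0.027 without Model 1 and YHY 2, and -0.10 to 0.13 with a mouse left out. Casp12 in YHY against Model was 0.39 over the 9 mice, 0.022 with the 8 mice alone, and -0.29 to 0.20 with a mouse left out.

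With the replicate block, 6289, 1920 and 8424 genes were called in Model against Ctrl, YHY against Model and YHY against Ctrl, and 3, 1 and 2 members. Bcl2 in YHY against Ctrl lost its call (log2 fold change -0.45, edgeR adjusted P = 0.053).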
